A study of Homo sapiens and Mus musculus with 12 samples.

Results

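SPTAN1, IBA57, PI16, TIGAR, KCNRG and CXADR are the protein-coding genes nearest to 6 of the strongest GFI1 peaks of K562 cells, a human erythroleukemia line. The genes were selected on the GFI1 peak list of control cells, which holds 498 peaks, and they are 6 of 20033 protein-coding genes in GENCODE release 44. SPTAN1, IBA57, PI16 and TIGAR lie at the 4 strongest peaks by −log10 p. KCNRG and CXADR lie at the next strongest peaks, ranks 14 and 15, that were also called in LSD1-depleted cells. Rank in the control list and, for KCNRG and CXADR, a peak in the depleted cells are therefore what the selection used, and both are given below as descriptions.

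ChIP-seq was performed on K562 cells that express Cas9 together with a control sgRNA without a target (sg-NT) or with one directed at LSD1 (sg-LSD1), and on THP1 cells, a human monocytic leukemia line. The 5 peak lists analysed were those of GFI1 and LSD1 from sg-NT cells, of GFI1 from sg-LSD1 cells, and of GFI1 and SPI1 from THP1 cells whose labels name no sgRNA. Each list comes from 1 library without replicates, no p-value between libraries was computed, and every difference below compares 2 libraries and not 2 conditions. The sg-LSD1 cells are a single edited line made with 1 sgRNA. The study assessed LSD1 protein in this line by western blot, and loss of LSD1 from chromatin was not examined here, since no LSD1 ChIP of these cells is among the lists.

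GFI1 is a zinc-finger repressor of blood cells that recognises DNA around an AATC core and recruits LSD1, a histone demethylase also known as KDM1A, through its SNAG domain. Its targets in myeloid cells are often shared with SPI1 (PU.1), an activator that binds GGAA-type ETS sequences. K562 cells have erythroid and megakaryocytic features, in which GATA and RUNX factors occupy many enhancers, whereas THP1 cells are monocytic. The 6 genes have no single role in common. SPTAN1 encodes the non-erythroid alpha spectrin of the membrane skeleton, IBA57 a mitochondrial iron-sulfur cluster assembly factor and PI16 a member of the cysteine-rich secretory protein family. TIGAR encodes a p53-induced fructose bisphosphatase that restrains glycolysis, KCNRG a regulator of voltage-gated potassium channels, and CXADR the coxsackievirus and adenovirus receptor of tight junctions. A peak is assigned to a gene here by distance alone, and the peak lists hold no expression values.

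The sequences under the GFI1 summits of the 6 selected sites are shown. Those at ranks 5 to 13, stronger than KCNRG and CXADR in sg-NT cells, were not selected and are not shown. Each is 100 bp of the GRCh38 reference, plus strand, 5′ to 3′, centred on the sg-NT GFI1 summit, with AATC and its reverse complement GATT in capitals. The windows are chr9:128558468-128558567 (SPTAN1), chr1:228164620-228164719 (IBA57), chr6:36954323-36954422 (PI16), chr12:4320890-4320989 (TIGAR), chr13:50161262-50161361 (KCNRG) and chr21:17454327-17454426 (CXADR).
SPTAN1: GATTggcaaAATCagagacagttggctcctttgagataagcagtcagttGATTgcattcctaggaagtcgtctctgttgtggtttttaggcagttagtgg
IBA57: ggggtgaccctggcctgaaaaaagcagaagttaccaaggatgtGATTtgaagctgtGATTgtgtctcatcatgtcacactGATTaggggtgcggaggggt
PI16: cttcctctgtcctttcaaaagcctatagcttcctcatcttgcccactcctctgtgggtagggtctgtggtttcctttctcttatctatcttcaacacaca
TIGAR: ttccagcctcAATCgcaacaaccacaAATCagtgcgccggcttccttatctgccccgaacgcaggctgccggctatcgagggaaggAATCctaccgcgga
KCNRG: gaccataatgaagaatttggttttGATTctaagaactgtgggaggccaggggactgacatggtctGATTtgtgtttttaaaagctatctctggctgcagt
CXADR: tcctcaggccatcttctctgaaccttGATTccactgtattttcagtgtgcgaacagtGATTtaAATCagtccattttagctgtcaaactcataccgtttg

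The core AATC, on either strand, was present in 5 of the 6 windows and absent from the PI16 window. It occurred 3 times each at SPTAN1, IBA57, TIGAR and CXADR and 2 times at KCNRG. Over all 498 sg-NT GFI1 summits, 68.5% of 100-bp windows held AATC, against 47.4% of windows 2000 bp away, and 32.5% held at least 2. The letters AATCA, which contain AATC, were found in the same 5 windows, and accounted for 11 of the 14 AATC matches. AATCA was held by 36.7% of all sg-NT GFI1 windows and by 18.9% of those 2000 bp away. The longer core AATCAC, which contains both, was found in the IBA57 window at 2 places and in the CXADR window at 1 place, compared with 16.1% of all sg-NT GFI1 windows and 5.12% of those 2000 bp away. The matches at IBA57 were centred at −6.5 and 6.5 bp from the summit, with negative distances to its left on the plus strand. At CXADR, AATCAC was centred at 7.5 bp. At SPTAN1 an AATC match lay on the summit itself, with its middle 0.5 bp away, whereas the nearest one at TIGAR was centred at −22.5 bp. Of all 498 sg-NT GFI1 windows, 41.4% had an AATC match centred within 20 bp of the summit. These matches describe the letters in the windows and are not evidence of a bound site.

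Cores of other factors were searched in the same windows, on both strands. A GATA core, AGATAA or TGATAA, was found at SPTAN1, PI16 and TIGAR, centred at −14.5, 32.5 and −2.5 bp from the summit. Of all sg-NT GFI1 windows, 35.7% held one, against 8.53% of windows 2000 bp away. In the GFI1 windows of THP1 cells, 7.43% held a GATA core, and 9.85% did so 2000 bp away. A RUNX core, TGTGGTTT or TGTGGTTA, was found at SPTAN1 and PI16, compared with 6.22% of all sg-NT GFI1 windows and 1.31% of those 2000 bp away. The RUNX core was not among the cores planned beforehand, so nothing is inferred from its presence at these sites. The PI16 window of 100 bp, which has no AATC, thus holds 1 GATA core and 1 RUNX core. In 200 bp around the summit AATC was found at all 6 sites, PI16 included, and in 85.3% of all sg-NT GFI1 windows of that length. The ETS core GAGGAAGT was found in 0 of the 6 windows and in 1.81% of all sg-NT GFI1 windows. Only these exact letters were searched, and shorter GGAA-type sequences were not counted.

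The windows differed in base composition. GC content was 44% at SPTAN1, 50% at IBA57, 46% at PI16, 59% at TIGAR, 42% at KCNRG and 41% at CXADR. The median over all 498 windows was 48.5%, with quartiles of 43.0% and 54.0%, so TIGAR lay above this range and KCNRG and CXADR below it. TIGAR also held 9 CpG dinucleotides, where the other windows held 0 to 2.

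All 6 genes lie on the plus strand. The SPTAN1 peak (chr9:128558210-128558880, summit 128558518) lay inside the gene (ENSG00000197694.19, chr9:128552558-128633662), in intron 1 of the canonical transcript and 5931 bp downstream of its start. The summit was intronic in 15 of 46 annotated SPTAN1 transcripts and exonic in 0. The nearest other protein-coding gene was GLE1, an mRNA export factor, 14644 bp away.

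The IBA57, PI16 and TIGAR summits lay just upstream of canonical starts. The IBA57 peak (chr1:228164376-228164895, summit 228164670) was centred 1134 bp upstream of IBA57 (ENSG00000181873.13, chr1:228165804-228182257). The same position lies inside IBA57-DT, a lncRNA transcribed from the opposite strand, in intron 1 of its canonical transcript and in an exon of the other. The PI16 peak (chr6:36954158-36954633, summit 36954373) was centred 365 bp upstream of the canonical start of PI16 (ENSG00000164530.15, chr6:36948263-36964837). Because 2 of 4 PI16 transcripts start further upstream, this summit is also intronic in those 2. The TIGAR peak (chr12:4320712-4321221, summit 4320940) was centred 273 bp upstream of the canonical start of TIGAR (ENSG00000078237.7, chr12:4307763-4360028), and is intronic in 1 of 4 TIGAR transcripts. It also lies in intron 4 of the annotated protein-coding gene ENSG00000285901, which spans TIGAR, so both genes are equally near. CCND2, the cyclin D2 gene, ends 15587 bp upstream. Of the 5 genes matched in the RefSeq promoter table of GRCh38.p14, TIGAR was the 1 whose promoter window overlapped its GFI1 peak. That comparison did not cover every annotated start. The PI16 window (chr6:36948046-36948345) lies at the upstream start, 6028 bp from the summit, so the canonical PI16 start was not compared.

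The remaining 2 sites were distal. The KCNRG peak (chr13:50160979-50161519, summit 50161312) lay 140390 bp from the end of KCNRG (ENSG00000198553.9, chr13:50015254-50020922), in intron 2 of DLEU1, a lncRNA of a region often deleted in chronic lymphocytic leukemia. No protein-coding gene lay within 100 kb of it. The CXADR peak (chr21:17454172-17454583, summit 17454377) lay 58666 bp upstream of CXADR (ENSG00000154639.19, chr21:17513043-17593579) and 4273 bp from the lncRNA LINC01549. Each of the 6 sites stood alone in the sg-NT GFI1 list. The nearest other peak was 465264 bp from SPTAN1, 767953 bp from IBA57, 1842150 bp from PI16, 2623729 bp from TIGAR, 19798301 bp from KCNRG and 2815001 bp from CXADR.

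**Figure D1:**
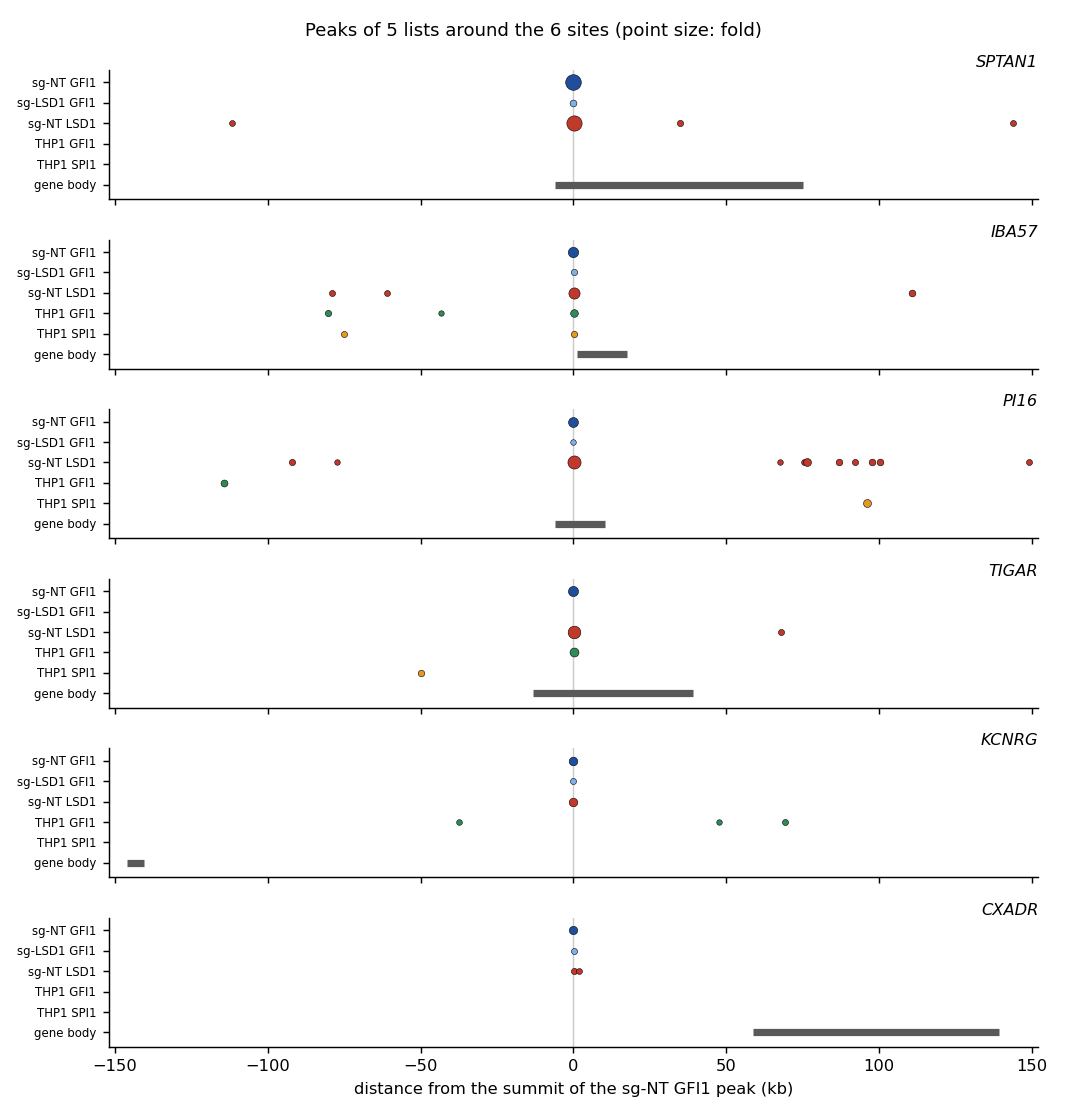
Peaks of the 5 lists within 150 kb of the 6 sites, by distance from the sg-NT GFI1 summit in kb, with point size increasing with fold and a gray bar for the gene body. A single sg-NT GFI1 peak is seen in each panel, while the LSD1 list adds 1 to 10 further peaks around all sites except KCNRG.

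For each peak the authors deposited a fold, which is the ratio of fragments to local background at the summit after 1 is added to each, and the Poisson −log10 p of the same position. Both were used to solve for the whole number of fragments over the summit and for the local background, which succeeded for 100% of peaks in each list. Fragment numbers carry exact Poisson 95% intervals, given in parentheses, which cover counting error only. To compare libraries, fragments were divided by the genome-wide background of the library, which was 0.451 fragments for GFI1 and 0.630 for LSD1 in sg-NT cells, 0.547 in the sg-LSD1 library, and 0.484 for GFI1 and 0.404 for SPI1 in THP1 cells. These libraries are shallow, with medians of 11 to 13 fragments over a summit.

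In sg-NT cells the SPTAN1 site carried 80 GFI1 fragments (63.4 to 99.6), which gave a 55.8-fold enrichment at a −log10 p of 149. PI16 had 46 fragments (33.7 to 61.4), or 27.1-fold enrichment at a −log10 p of 66.0. IBA57 had 43 fragments (31.1 to 57.9), 29.3-fold and 67.8, and TIGAR had 40 (28.6 to 54.5), 28.1-fold and 63.7. These are the values the sites were selected on, with SPTAN1 the highest of all 498, and nothing is inferred from their order. KCNRG had 29 fragments (19.4 to 41.6), or 20.7-fold enrichment at a −log10 p of 43.0, and CXADR had 27 (17.8 to 39.3), 19.3-fold and 39.3. The list as a whole ranged from 5 to 80 fragments with a median of 11. The first site below TIGAR, at rank 5, lay near CEBPE (24.1-fold, −log10 p 54.6) and had no sg-LSD1 peak. The next site with a sg-LSD1 peak below CXADR, at rank 16, lay near ZNRF2 (17.9-fold, −log10 p 35.8).

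**Figure D2:**
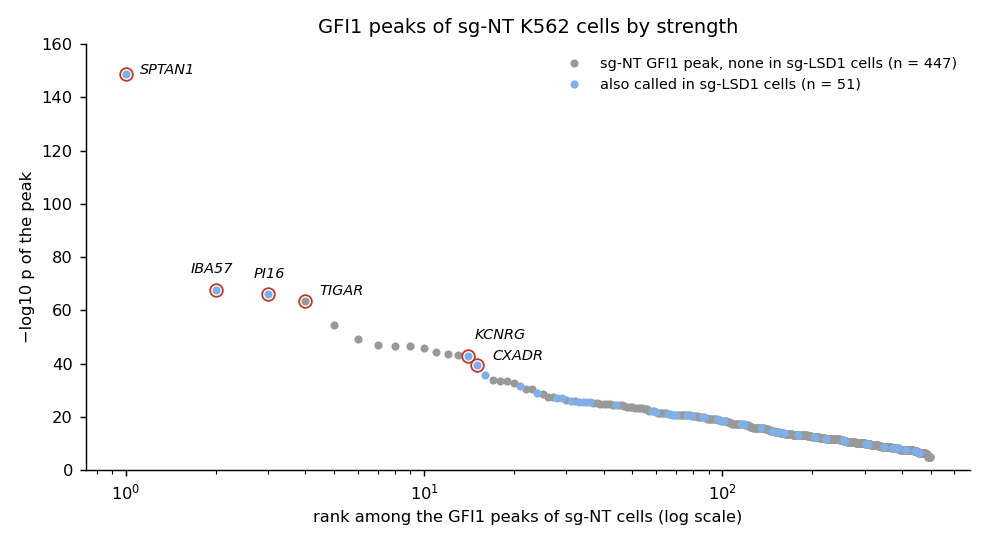
−log10 p of the 498 sg-NT GFI1 peaks against rank (log scale), with peaks that were also called in sg-LSD1 cells in light blue and the 6 named sites circled. SPTAN1 at 149 lies far above the next peak at 67.8, and the peaks of ranks 5 to 13 are all gray.

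LSD1 occupied every one of the 6 sites in sg-NT cells, compared with 78.3% of all sg-NT GFI1 peaks (390 of 498, Wilson 95% interval 74.5 to 81.7). With so high a background share, and with LSD1 at each of the 16 strongest peaks, 6 of 6 is not a feature that separates these sites from others of their strength. The LSD1 peak at SPTAN1 had 87 fragments (69.7 to 107), a fold of 54.0 and rank 2 of 6548 LSD1 peaks. PI16 ranked 3 with 83 fragments (66.1 to 103) and a fold of 43.2, and TIGAR ranked 5 with 66 (51.0 to 84.0) and a fold of 40.9. IBA57 ranked 17 with 56 fragments (42.3 to 72.7) and a fold of 33.5. The sites at the 4 strongest GFI1 peaks were thus also among the 17 strongest LSD1 peaks. KCNRG followed at rank 150 with 32 fragments (21.9 to 45.2) and a fold of 20.2. CXADR was at rank 2275 with 13 fragments (6.92 to 22.2) and a fold of 8.59, close to the median of 13 fragments in that list. Another LSD1 peak, with a fold of 6.75, lay 1807 bp from the CXADR site.

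Relative to GFI1, LSD1 was lowest at CXADR. The ratio of LSD1 to GFI1 enrichment, each over the genome-wide background, was 0.345 at CXADR (0.163 to 0.692), the interval covering counting error of both numbers. It was 0.779 at SPTAN1 (0.569 to 1.07), 0.791 at KCNRG (0.463 to 1.35) and 0.933 at IBA57 (0.616 to 1.42). TIGAR and PI16 had ratios of 1.18 (0.787 to 1.80) and 1.29 (0.891 to 1.9). The intervals of these 5 sites overlapped one another, and that of CXADR lay below those of PI16 and TIGAR. Over the 390 shared peaks the median ratio was 1.30, with a range of 0.277 to 4.06. The antibodies differ, so the ratio orders sites and does not give relative amounts of protein, and sites selected on strong GFI1 peaks tend to low ratios by that choice.

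In sg-LSD1 cells, GFI1 peaks were called at 5 of the 6 sites, SPTAN1, IBA57, PI16, KCNRG and CXADR, compared with 10.2% of all sg-NT GFI1 peaks (51 of 498, 7.88 to 13.2). This count is partly fixed, since KCNRG and CXADR were selected for having such a peak. Among the 10 strongest sg-NT peaks 3 were called again, and among ranks 5 to 13, between TIGAR and KCNRG, 0 of 9 were. TIGAR had no peak in these cells, and the nearest one on chromosome 12 lay 17180323 bp away.

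The peaks that were called again were weaker. SPTAN1 had 26 fragments in sg-LSD1 cells (17.0 to 38.1), against 80 in sg-NT cells, and its fold was 11.4 against 55.8. IBA57 had 24 fragments (15.4 to 35.7) and a fold of 8.99, and PI16 had 22 (13.8 to 33.3) and a fold of 5.43. KCNRG and CXADR each had 11 fragments (5.49 to 19.7), with folds of 7.75 and 7.76. The 5 fragment intervals overlapped one another in sg-LSD1 cells. Overlap alone does not show that the numbers are alike, and differences between the sites were not tested. Among the 160 sg-LSD1 peaks the ranks were 7 for SPTAN1, 16 for IBA57, 58 for CXADR, 60 for KCNRG and 61 for PI16. CXADR had the 1 sg-LSD1 peak on chromosome 21.

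**Figure D3:**
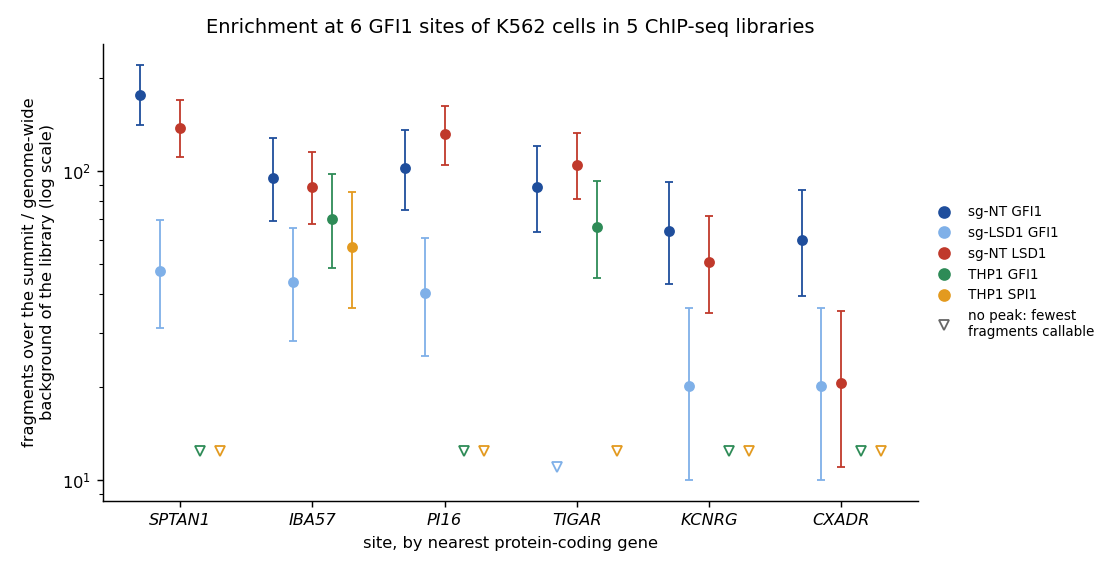
Fragments over the summit divided by the genome-wide background of the library (log scale) at the 6 sites in the 5 lists, with exact Poisson 95% intervals, and open triangles at the fewest fragments that could be called where a site had no peak. The sg-LSD1 GFI1 points (light blue) lie below the sg-NT GFI1 points (dark blue) at all 5 sites called in both, and THP1 peaks are seen at IBA57 and TIGAR.

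Divided by the genome-wide background of each library, GFI1 enrichment in sg-LSD1 cells was 0.268 times that in sg-NT cells at SPTAN1 (0.165 to 0.422). It was 0.313 times at KCNRG (0.141 to 0.646), 0.336 at CXADR (0.151 to 0.701), 0.395 at PI16 (0.226 to 0.670) and 0.461 at IBA57 (0.268 to 0.777). All 5 intervals lay below 1 and all overlapped one another, and differences between the sites in how much remained were not tested. Over all 51 sites called in both libraries the median ratio was 0.708, with a range of 0.268 to 2.58, and 38 were below 1. SPTAN1, KCNRG and CXADR had the 3 lowest of these ratios, and PI16 and IBA57 were at places 6 and 12 from the lowest, an order that changed with the background used, as given below. Low ratios are in part fixed by selecting sites on high sg-NT values. Among the 16 shared sites within the 50 strongest sg-NT peaks, the median ratio was 0.447 and 15 of 16 were below 1.

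The absence of a TIGAR peak sets a limit and not a value. At the genome-wide background of the sg-LSD1 library, 6 fragments would have been enough for a call, which corresponds to a ratio of 0.124 to the 40 fragments of sg-NT cells. At the highest local background seen at the other 5 sites, 13 fragments would have been needed, a ratio of 0.268. That higher limit is close to the ratio measured at SPTAN1. GFI1 enrichment at TIGAR in sg-LSD1 cells was therefore below what could be called. The ratios at KCNRG, CXADR, PI16 and IBA57, 0.313 to 0.461, lay above both limits, with lower interval bounds of 0.141 to 0.268. The limit of 0.124 lay below the intervals of all 5 sites. Without a peak the local background at TIGAR in these cells is not known, so which limit applies could not be told.

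The local background at 3 of the sites was higher in sg-LSD1 cells. In units of the genome-wide background it was 2.51 at SPTAN1, against 1.00 in sg-NT cells. At IBA57 it was 3.26 against 1.11, and at PI16 5.92 against 1.63. KCNRG and CXADR had 1.00 in both libraries. The same −log10 p of 12.0 was therefore reached by 22 fragments at PI16 and by 11 at KCNRG and CXADR, and 13 fragments would have been needed for a call at PI16 but 6 at the other two. Dividing by the local background instead lowered the sg-LSD1 to sg-NT ratio to 0.107 at SPTAN1, 0.157 at IBA57 and 0.109 at PI16 and left KCNRG and CXADR at 0.312 and 0.336. SPTAN1 stayed at place 1 from the lowest of the 51 shared sites, PI16 and IBA57 moved to places 2 and 4, and KCNRG and CXADR to places 8 and 9. The median over the 51 sites was 0.576 on this scale. The size of the difference at SPTAN1, IBA57 and PI16 thus depended on which background was used, while its direction did not. In the LSD1 list of sg-NT cells the local background was 1.00 at SPTAN1, 1.11 at IBA57 and 1.50 at PI16, near the values of the sg-NT GFI1 list. Over all 51 shared sites the local background was higher in sg-LSD1 cells at 33. What raised it was not tested, and whether these backgrounds come from the ChIP or from an input library is not given.

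**Figure D4:**
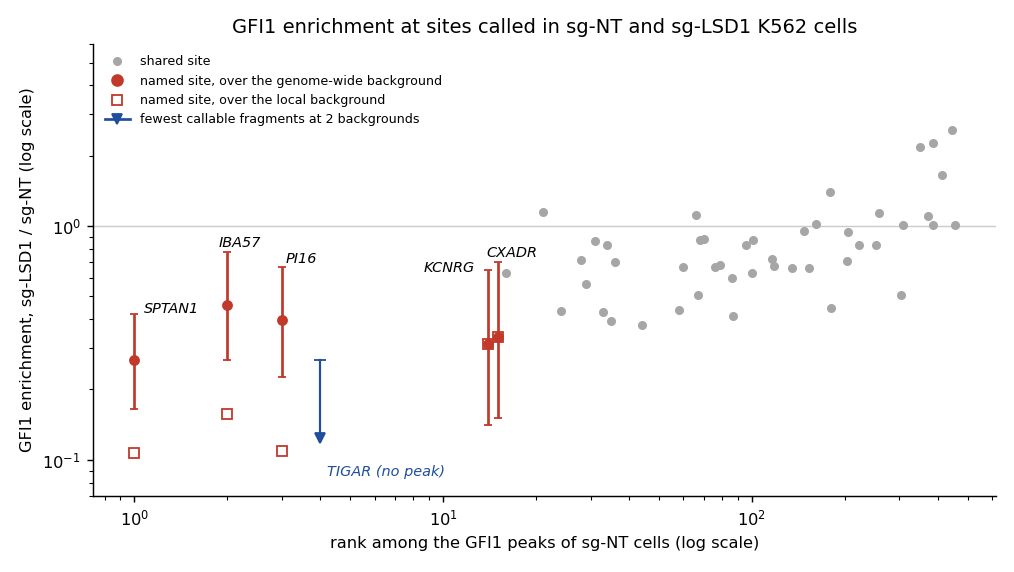
Ratio of GFI1 enrichment in sg-LSD1 to sg-NT cells (log scale) at the 51 sites called in both (gray), against rank in the sg-NT list (log scale), with the 5 named sites in red (95% intervals for counting error) and the range of callable limits for TIGAR in blue. Filled circles are over the genome-wide and open squares over the local background, which differ at SPTAN1, IBA57 and PI16 and coincide at KCNRG and CXADR.

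In THP1 cells, GFI1 peaks were called at 2 of the 6 sites, IBA57 and TIGAR, against 16.3% of all sg-NT GFI1 peaks (81 of 498, 13.3 to 19.8). TIGAR had 32 fragments there (21.9 to 45.2), a fold of 22.2 and rank 95 of 3461, with the summit 18 bp from that of K562 cells. IBA57 had 34 fragments (23.5 to 47.5), a fold of 15.9 and rank 149, with the summit 32 bp away. Over the genome-wide background, THP1 enrichment was 0.745 times that of sg-NT K562 cells at TIGAR (0.453 to 1.22) and 0.737 times at IBA57 (0.456 to 1.18). Both intervals included 1. At IBA57 the local background was 2.48 times the genome-wide one in THP1 cells, against 1.11 in sg-NT K562 cells, and the ratio fell to 0.543 from the deposited folds and to 0.331 over the local background. At TIGAR these scales gave 0.790 and 0.754. Whether GFI1 enrichment at IBA57 was lower in THP1 cells thus depended on the background used. The median of this ratio over the 81 shared sites was 1.24. Here too, low ratios at IBA57 and TIGAR are in part fixed by selecting sites on high sg-NT values. At SPTAN1, PI16, KCNRG and CXADR, where no THP1 GFI1 peak was called, the nearest was 365468, 114371, 37375 and 1260103 bp away.

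SPI1 peaks of THP1 cells overlapped 1 of the 6 sites, IBA57, against 1.00% of all sg-NT GFI1 peaks (5 of 498, 0.430 to 2.33). The IBA57 SPI1 peak had 23 fragments (14.6 to 34.5), 9.27-fold enrichment at a −log10 p of 19.6, and rank 496 of 1846. The local background at this peak was 3.93 times the genome-wide one of the SPI1 library. Its summit lay 168 bp from the sg-NT GFI1 summit on the side towards the IBA57 start. IBA57 was the 1 site of the 6 with a peak in all 5 lists.

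Counted in the gene body and 50 kb on either side, the windows of the 6 genes held 4 sg-NT GFI1 peaks, 3 sg-LSD1 GFI1 peaks, 6 LSD1 peaks, 3 THP1 GFI1 peaks and 2 THP1 SPI1 peaks. The KCNRG and CXADR windows held 0 in all 5 lists, because the sites themselves lie beyond 50 kb. Genes with at least 1 peak numbered 4, 3, 4, 2 and 2 of the 6 in this order. Of all protein-coding genes, 4.75% had a sg-NT GFI1 summit in such a window, 1.47% a sg-LSD1 GFI1 summit, 41.1% a LSD1 summit, 26.1% a THP1 GFI1 summit and 15.5% a THP1 SPI1 summit. The sg-NT GFI1 count was fixed by the selection, and nothing is read from it or from the sg-LSD1 count. The LSD1 and THP1 counts rest on 2 to 4 genes and are given as a description.

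In all, 4 peaks in these windows lay away from the named sites. SPTAN1 had a further LSD1 peak in intron 23 (chr9:128593010-128593377) with a fold of 8.77 and 17 fragments, where no GFI1 peak was called in any library. The TIGAR window held a LSD1 peak with a fold of 7.98 (chr12:4388682-4389013), beyond the FGF23 gene, and a THP1 SPI1 peak with a fold of 9.97 (chr12:4270893-4271278) inside CCND2. The IBA57 window held a weak THP1 GFI1 peak (chr1:228121078-228121383) with a fold of 4.64 and 12 fragments, at −44468 bp from the gene's start. The 3 peaks of LSD1 and GFI1 were weaker in fold than the site peaks of the same lists in the same windows.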

How the data were processed

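Chromatin of human cell lines was fixed with DSG and formaldehyde before immunoprecipitation. Per the methods and the labels, the authors used Trim Galore 0.6.1 for trimming, Bowtie2 2.5.4 for paired-end mapping to GRCh38, Picard 3.1.0 to take out duplicates and MACS2 2.2.9.1 for peaks, which had to pass p = 1e-05 and lie outside blacklisted regions. Whether an input served as the MACS2 control is not given in the sources used here. The deposited fold is a ratio of fragments to local background at the summit. The authors deposited the p-value and q-value of each peak as −log10 values. The deposited score, a rescaled −log10 p, was not used. Input libraries and the H3K4me1 libraries of mouse cells were not analysed here.

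No interval occurred more than once in a list. The fold, (fragments + 1) / (background + 1), and the Poisson −log10 p of each peak were solved for a whole number of fragments and a local background. The genome-wide background of a library was the smallest local background found at 5 or more of its peaks. On simulated data, 100.0% of 498 and of 160 peaks, the lengths of the sg-NT and sg-LSD1 GFI1 lists, were recovered. These peaks were made with the same formulas, and their fragments and backgrounds were not taken from the lists. Their recovery therefore checks the solver and not the fit of the formulas to the deposited peaks. Peaks were counted as shared with at least 1 bp in common. Fragment numbers have exact Poisson, ratios exact binomial-based and shares Wilson 95% intervals, all for counting error only. No test was made with 1 library per condition. The named items are the 6 genes, all peaks within 50 kb of their bodies in GENCODE release 44, the site of each gene (its strongest sg-NT GFI1 peak among those nearest to it), the neighbours in rank and protein-coding genes within 100 kb. Motif cores were searched in 100 bp at the summits and 2000 bp away. The genes, lists and tests were chosen with earlier results of these data known. Alternatives for overlap, threshold, window, background, core and rank are given at the end. Python 3.11.15, numpy 2.4.6, scipy 1.17.1 and matplotlib 3.10.9 were used.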

Additional observations from a re-analysis of the deposited data

How the results depend on the processing

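Of 116 alternative values for 33 results, 102 stayed within the main counting error or within 1.5 times the main count, and no ratio below 1 for sg-LSD1 against sg-NT rose above 1. The numbers of named sites with an LSD1, sg-LSD1 GFI1, THP1 GFI1 or THP1 SPI1 peak (6, 5, 2 and 1) were the same under every overlap rule and threshold tried. Dividing by the local background gave sg-LSD1 to sg-NT ratios of 0.107 at SPTAN1, 0.157 at IBA57 and 0.109 at PI16, and the deposited folds gave 0.200 at PI16. With peaks at most 500 bp apart counted as shared, 8 sg-NT GFI1 peaks had an SPI1 peak. Gene windows widened to 100 kb held 22 LSD1 and 4 SPI1 peaks, and windows of 10 kb held 1 SPI1 peak. The shorter core AATC was found in 5 of the 6 windows, as was AATCA, and AATC in 200 bp was found at 6, the last 2 settings being added after seeing the data. Ranked by fragments IBA57 was 4, and ranked by fold KCNRG was 8. The THP1 to sg-NT K562 ratio at IBA57, recomputed after seeing the data, was 0.331 over the local background. The cause of the moves with the local background was not tested.

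A pseudocount of 0 gave no ratio and solved 0 of 498 sg-NT and 1 of 160 sg-LSD1 GFI1 peaks. No library was left out, because each condition has 1. No paired analysis was possible because each list is a single library, and the mouse samples that share replicate numbers were not analysed here. Depth limits the results most at KCNRG and CXADR, with 11 fragments in sg-LSD1 cells, and at TIGAR, where lack of a peak leaves up to 5 fragments, or more at a raised local background, unseen. Apart from depth, the paper attributes its low number of GFI1 sites in K562 cells to technical limits of the GFI1 antibodies on offer. A missing GFI1 peak is therefore not read here as absence of GFI1.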

Other observations

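Local backgrounds of the 2 sg-NT libraries were closely alike at shared sites. Expressed over the genome-wide background of each library, they were within 10% of each other at 296 of 390 sites shared by GFI1 and LSD1 (75.9%), with a Spearman rho of 0.88 across sites, which are not independent replicates. Between the GFI1 libraries of sg-NT and sg-LSD1 cells, 9 of 51 shared sites (17.6%) were within 10%, with a rho of 0.272. The labels name a single input for sg-NT cells and another for sg-LSD1 cells. If these inputs served as MACS2 controls, likeness between the sg-NT lists would be built in. Their use is not given and was not tested, so nothing about the ChIP libraries is read from these values. The median distance between summits was 45.5 bp for LSD1 and 39 bp for sg-LSD1 GFI1, among pairs that had to overlap to be counted. Of the 498 sg-NT GFI1 peaks, 354 had an LSD1 summit and 49 a sg-LSD1 GFI1 summit within 200 bp of their own.

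Motif content also differed between the lists. AATC was held by 88.8% of the 160 sg-LSD1 GFI1 windows (82.9 to 92.8), against 68.5% of the 498 sg-NT windows (64.3 to 72.4), and AATCAC by 26.2% (20 to 33.6) against 16.1% (13.1 to 19.5). At 2000 bp from the summits, AATC was held by 51.9% of sg-LSD1 windows against 47.4% of sg-NT windows. For AATCAC these shares were 6.56% and 5.12%. LSD1 windows held AATCAC in 5.18% and a GATA core in 21.7%, against 4.64% and 8.61% at 2000 bp. The lists overlap and differ in length, and no test of these differences was made.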
